A study of Mus musculus with 8 samples.

Results

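The 10 genes followed here are known as markers of the choroid plexus, and were measured array by array in the BTBR and B6 hippocampus: Ttr, Kl, Folr1, Clic6, Sostdc1, Cldn2, Slc4a5, Aqp1, Otx2 and Prlr. They are 10 of the 27373 gene names on the array, and all non-control probes carrying one of these names were taken, which gave 16 of 41174 probes. Of these probes 14 passed the filter on dim probes, and all 10 genes kept at least 1. Hippocampal RNA came from 4 BTBR mice (genotype BTBR T+ Itpr3tf/J, an inbred strain used as a model of autism spectrum disorder) and 4 C57BL/6J wild type mice (B6), all male, 5 months old and without drug treatment. The tissue was whole hippocampus, with 1 mouse per array. For the BTBR mice too, the label for strain background reads C57BL/6J. Title, source and genotype place those arrays in the BTBR group.

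The choroid plexus is a folded sheet of epithelium around a leaky capillary bed that hangs in the brain ventricles and secretes the cerebrospinal fluid. Its epithelial cells move ions and water toward the ventricle, carry hormones and vitamins across, and are held together by tight junctions. The sheet of the lateral ventricle lies against the hippocampus along the choroidal fissure. In bulk tissue, fewer cells of a type and less RNA per cell cannot be told apart.

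Each array held 45018 spots read in a single color (Cy3), and levels are given as log2 normalised intensity after quantile normalisation. A level of one probe is not comparable with that of another. The share of probes well above background ran from 56.8% to 71.9% over the 8 arrays. The arrays sat on 2 slides, with replicates 1 and 2 of both strains on slide 1 and replicates 3 and 4 on slide 2. All 12 genes of a list of hippocampal neuron markers passed the filter on dim probes. With 4 mice per strain the precision is limited, and limma sets each strain difference against the spread between these mice.

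The 10 markers were spread widely within each strain, and limma called no strain difference in any of them. Mean levels were higher in BTBR for 10 of 10 markers, against 52.9% of the 18399 genes tested. Their median difference, BTBR minus B6, was 0.38 on the log2 scale, while the median over all genes was 0.01. No marker passed an adjusted p of 0.05 (limma, Benjamini-Hochberg over all probes), and the adjusted p ran from 0.158 to 0.919. Across the array 7.90% of genes were called by this test. At an unadjusted p under 0.05 limma marked 1 of 10 markers, Sostdc1, beside 19.1% of all genes. The rank product, the test named in the study's methods, also called 1 of 10, again Sostdc1, with a percentage of false prediction (pfp) of 0.000267, beside 4.33% of all genes. This pfp comes from permuting probes within arrays and does not measure the spread between mice. In no marker did the 4 BTBR arrays lie apart from the 4 B6 arrays, which 14.4% of all genes did.

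With 1 mouse left out, the sign of the difference turned in 5 of 10 markers (Ttr, Folr1, Slc4a5, Aqp1 and Prlr) and was kept in the other 5. The difference then ran from 0.13 to 0.58 in Kl, from 0.19 to 0.98 in Clic6, from 0.04 to 0.85 in Cldn2, from 0.19 to 0.80 in Otx2 and from 1.24 to 2.03 in Sostdc1. Without BTBR replicate 1 the mean was higher in BTBR for 6 of 10 markers, and the same number was found without BTBR replicate 2 and without B6 replicate 4. Leaving those 3 mice out in turn moved the median difference to 0.03, 0.08 and 0.04. The standard deviation within a strain had a median of 0.907 over the markers and 0.135 over all genes. All 10 markers lay above the 90th percentile of that spread, 0.328.

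**Figure D1:**
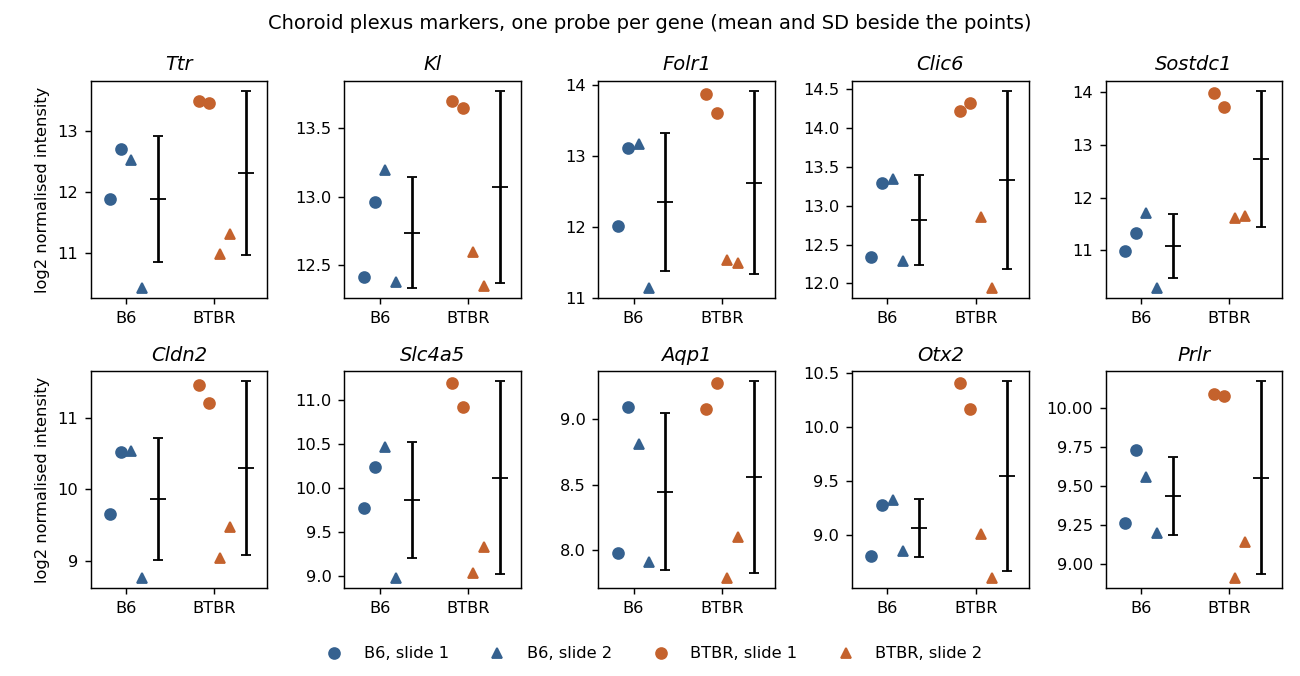
Log2 normalised intensity of the 10 markers on each of the 8 arrays, by strain and slide (circles slide 1, triangles slide 2), with the mean and SD of 4 arrays beside the points. BTBR replicates 1 and 2 lie above all B6 mice in every panel but that of Aqp1, and BTBR replicates 3 and 4 lie within or below the B6 range in every panel.

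Ttr and Folr1 serve the transport of hormone and vitamin into the cerebrospinal fluid. Ttr encodes transthyretin, the carrier of thyroxine and retinol-binding protein that the choroid plexus secretes into the cerebrospinal fluid. B6 replicates 1 to 4 measured 11.88, 12.71, 12.53 and 10.42, and BTBR replicates 1 to 4 measured 13.50, 13.46, 10.98 and 11.31. Both BTBR mice of slide 1 stood above every B6 mouse, and both BTBR mice of slide 2 stood between B6 replicate 4 and B6 replicate 1. Means were 11.89 ± 1.04 in B6 and 12.31 ± 1.35 in BTBR (SD, n = 4 each), a difference of 0.43 (SE 0.71, limma adjusted p = 0.817, n = 4 per strain). The highest and the lowest of the 8 arrays were 8.44-fold apart.

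Folr1 encodes folate receptor alpha, through which the epithelium takes up folate from the blood side. Its brighter probe measured 12.01, 13.11, 13.17 and 11.14 in B6 and 13.88, 13.60, 11.54 and 11.49 in BTBR. BTBR replicates 1 and 2 were again highest, B6 replicates 2 and 3 followed, and B6 replicate 4 was lowest. The strain difference was 0.27 (SE 0.67, limma adjusted p = 0.882, n = 4 per strain). A second Folr1 probe, about which no level comparison is made, gave 8.62, 9.47, 9.40 and 8.31 in B6 and 9.95, 9.73, 8.39 and 8.52 in BTBR, and followed the first over the 8 arrays with r = 0.99.

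Among the ion and water transporters, Aqp1 encodes the water channel of the ventricle-facing membrane. It measured 7.98, 9.09, 8.81 and 7.91 in B6 and 9.07, 9.27, 7.79 and 8.10 in BTBR, and was well above background on 3 of 4 arrays in each strain. The strains overlapped, and the difference was 0.11 (SE 0.39, limma adjusted p = 0.919, n = 4 per strain). Slc4a5 encodes a sodium bicarbonate cotransporter of the same membrane, with 9.78, 10.24, 10.47 and 8.97 in B6 and 11.19, 10.93, 9.03 and 9.33 in BTBR. BTBR replicates 1 and 2 were above all B6 mice, while BTBR replicates 3 and 4 were lower than B6 replicates 1 to 3, for a difference of 0.26 (SE 0.53, limma adjusted p = 0.858, n = 4 per strain). Clic6, of the chloride intracellular channel family, gave 12.34, 13.30, 13.35 and 12.28 in B6 and 14.22, 14.32, 12.85 and 11.94 in BTBR by its brighter probe. BTBR replicate 4 was the lowest of all 8 mice for Clic6, and the difference was 0.52 (SE 0.53, limma adjusted p = 0.688, n = 4 per strain). Cldn2 encodes claudin 2, which forms cation-permeable pores in the tight junction, and measured 9.66, 10.53, 10.53 and 8.76 in B6 and 11.45, 11.20, 9.04 and 9.48 in BTBR. Its order of mice was close to that of Folr1, with a difference of 0.42 (SE 0.61, limma adjusted p = 0.786, n = 4 per strain).

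Kl and Prlr belong to hormone signaling. Kl encodes Klotho, a transmembrane coreceptor for FGF23 that is also shed into the cerebrospinal fluid. It measured 12.41, 12.96, 13.20 and 12.38 in B6 and 13.70, 13.65, 12.60 and 12.35 in BTBR. BTBR replicate 4 and B6 replicate 4 had nearly the same low level, and the strain difference was 0.33 (SE 0.34, limma adjusted p = 0.682, n = 4 per strain). Prlr encodes the prolactin receptor, which is abundant in this epithelium and was described as a route for prolactin into the brain. Its brightest probe gave 9.27, 9.73, 9.56 and 9.20 in B6 and 10.09, 10.07, 8.91 and 9.14 in BTBR, the narrowest range of the 10 markers. BTBR replicates 1 and 2 lay above and BTBR replicates 3 and 4 below all B6 mice, and the difference was 0.11 (SE 0.28, limma adjusted p = 0.88, n = 4 per strain). Both other Prlr probes followed the brightest with r of 0.99 and 0.97 over the 8 arrays.

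Otx2 encodes a homeodomain transcription factor that the epithelium needs for its development and upkeep, and whose protein is secreted into the cerebrospinal fluid. It measured 8.80, 9.27, 9.32 and 8.85 in B6 and 10.41, 10.17, 9.01 and 8.59 in BTBR. The 2 high BTBR mice were above all others, BTBR replicate 4 was lowest, and the difference was 0.48 (SE 0.38, limma adjusted p = 0.586, n = 4 per strain). The Otx2 probe is printed in 10 spots on each array, which gives the error between spots. Between the 10 spots of an array the SD of log2 intensity ran from 0.0895 to 0.239, while the SD between mice was 0.272 in B6 and 0.881 in BTBR. The spot error leaves out RNA preparation, labeling and hybridisation.

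Sostdc1 (also called Wise or ectodin) encodes a secreted antagonist of BMP and a modulator of Wnt signaling. B6 replicates 1 to 4 measured 10.99, 11.33, 11.71 and 10.29, and BTBR replicates 1 to 4 measured 13.98, 13.71, 11.61 and 11.64. All BTBR mice lay above B6 replicates 1, 2 and 4, and BTBR replicates 3 and 4 lay just below B6 replicate 3, so that the strains overlapped by 1 B6 mouse. Means were 11.08 ± 0.61 in B6 and 12.73 ± 1.29 in BTBR (SD, n = 4 each). The difference of 1.65 (SE 0.59, limma adjusted p = 0.158, n = 4 per strain) was the largest of the 10 markers, with a 95% interval from 0.32 to 2.99. An exact two-sided permutation test of the 8 arrays gave p = 0.0857, where 4 against 4 cannot go below 0.0286. The highest and lowest of the 8 arrays were 12.9-fold apart.

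The probes are 60 bases long, and the first 30 bases, in lower case throughout, are shown where the readout turns on the probe: the single probe of Sostdc1, and both probes of the 2 genes for which one probe passed the filter and the other did not. Positions are those of mm9 in the array files.
Sostdc1, chr12:37044787-37044846, + strand: tgtaaaataaatgttttactctccgtatat
Kl, tested, chr5:151795712-151795771, + strand: tgagtggtcttattgataaccctgatacca
Kl, not tested, chr5:151789486-151789545, + strand: ctgttattctgggatggttctggtagagaa
Slc4a5, tested, chr6:83253664-83253723, + strand: ataccgaaaacatacagcttaaaatgccac
Slc4a5, not tested, chr6:83230079-83230138, + strand: ccttcatccttttctttgggacttactcca
The dim Kl probe was designed on a separate Kl transcript record and stood well above background on 1 of 4 arrays in BTBR and 0 of 4 in B6. Its level spanned 0.31 over the 8 arrays, against 1.35 for the tested Kl probe. The dim Slc4a5 probe stood well above background on 1 of 4 arrays in B6 and 2 of 4 in BTBR, and spanned 0.42, against 2.22. No member probe was saturated.

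**Figure D2:**
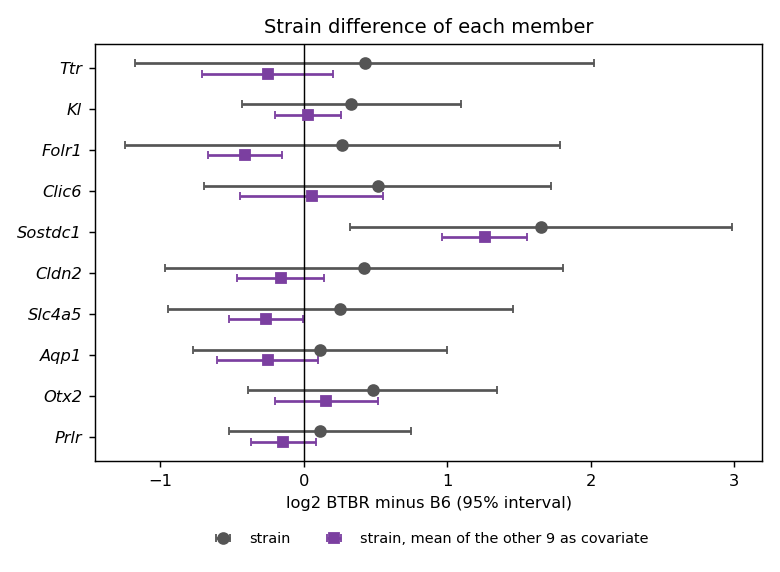
Difference in log2 normalised intensity, BTBR minus B6, with its 95% interval from limma for each marker (circles), and the same with the mean of the other 9 markers as a covariate (squares). All circle intervals but that of Sostdc1 include 0. The Sostdc1 square lies at 1.26 with an interval above 0. The square intervals of Folr1 (-0.67 to -0.15) and Slc4a5 (-0.52 to -0.0047) lie below 0, and those of the remaining markers include 0.

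The sign of the strain difference was not the same on both slides. On slide 1 all 10 were higher in BTBR than in B6, with a median difference of 1.18. On slide 2 a single marker, Sostdc1, was higher in BTBR, by 0.62, and the median difference was -0.37. Over all genes these medians were 0.02 and 0.00412. No marker and no gene on the array had an adjusted p under 0.05 for the difference between slides (limma interaction of strain and slide), while 1988 of 18399 genes (10.8%) and 6 of 10 markers had an unadjusted p under 0.05. Otx2 had the smallest unadjusted p of the markers, 0.00199, with an adjusted p of 0.407. With the slide as a block in limma 0 of 10 markers were called, and Sostdc1 had an adjusted p of 0.0662.

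Mice of one strain on one slide differed as well. B6 replicate 2 was above B6 replicate 1 for 10 of 10 markers, with a median of -0.69 for replicate 1 minus replicate 2, and B6 replicate 3 was above B6 replicate 4 for 10 of 10, by a median of 1.24. BTBR replicates 1 and 2 were alike, with 8 markers higher in the first and a median difference of 0.14. BTBR replicates 3 and 4 were mixed, with 4 markers higher in replicate 3. The mean of the 9 markers that were well above background on all 8 arrays, each centred on its own mean, gave -0.47, 0.20, 0.28 and -1.01 in B6 replicates 1 to 4 and 1.23, 1.08, -0.64 and -0.68 in BTBR replicates 1 to 4. This profile was high in the 2 BTBR mice of slide 1, intermediate in B6 replicates 2 and 3, and low in the other four mice.

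The levels of the markers went together over the 8 mice. All 45 pairs were compared. Pearson's r ran from 0.71 to 0.99 with a median of 0.92, and 45 of 45 pairs had an adjusted p under 0.05 (exact permutation over all pairings, Benjamini-Hochberg over the 45 pairs). Spearman's rho ran from 0.57 to 1 with a median of 0.86, and 36 of 45 pairs passed. The closest pairs joined Cldn2 with Ttr, Folr1 and Slc4a5, each with r of 0.99, and the loosest joined Sostdc1 with Aqp1. That pair had r = 0.71 (exact permutation p = 0.0438, adjusted p = 0.0438) and rho = 0.60 (exact permutation p = 0.132, adjusted p = 0.135).

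The 36 pairs without Sostdc1 kept r between 0.63 and 0.99, median 0.91, when the 2 mice farthest from the median of the first gene of the pair were left out. In the 9 pairs with Sostdc1, r was then between 0.07 and 0.62, median 0.41, with BTBR replicates 1 and 2 the mice left out in most of them. In many of the 36 other pairs BTBR replicate 2 was kept, so the ranges are not like for like. Among the 4 B6 mice alone, too few for a test, the 9 pairs with Sostdc1 had r between 0.78 and 0.99, median 0.89. Among the 4 BTBR mice alone, also too few, they had r between 0.93 and 0.9996, median 0.99. Taken as deviations from the strain means, all 45 pairs had r between 0.85 and 0.99, the Sostdc1 pairs between 0.89 and 0.99, and 32 of 45 passed the threshold. With strain and slide means removed, r ran from 0.57 to 0.99, median 0.86. A single slide holds 4 arrays, too few for a test within it. Each point is 1 mouse, and all 10 markers of a mouse come from 1 dissection and 1 hybridisation.

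**Figure D3:**
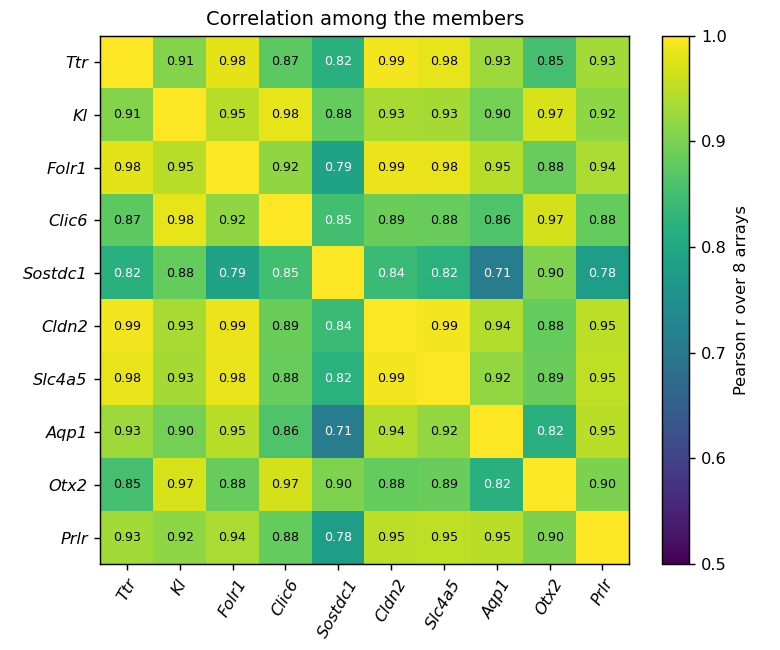
Pearson's r over 8 arrays for each pair of the 10 markers, written in the cells and shown as color from 0.5 to 1. The Sostdc1 row and column hold the lowest values, down to 0.71.

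Sostdc1 was set against the other 9 markers of the same mouse, a comparison chosen after its values were seen. Sostdc1 minus the mean of the other 9, each centred, gave -0.49, -0.91, -0.52 and -0.73 in B6 replicates 1 to 4 and 1.01, 0.83, 0.39 and 0.43 in BTBR replicates 1 to 4. Every BTBR mouse lay above every B6 mouse on this measure. The strains differed by 1.33, and the exact two-sided permutation p of 0.0286 was the smallest that 4 against 4 allows, with an adjusted p of 0.286 over the 10 markers treated in the same way. With the mean of the other 9 markers as a covariate in limma, Sostdc1 was higher in BTBR by 1.26 (SE 0.13, adjusted p = 0.000422 over all probes), in a fit that called 9.64% of all genes. Leaving out each mouse in turn kept the value between 1.11 and 1.33 with an adjusted p of at most 0.00277. None of the other 9 markers was called in its own fit of this kind, in which Sostdc1 counted among the other markers. Folr1 came nearest, at -0.41 (SE 0.11, adjusted p = 0.0684), and the remaining 8 lay between -0.26 and 0.16.

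Genes with the pattern nearest to that of the markers were sought by Pearson's r with the marker profile over the 8 arrays, among genes spanning at least 1 on the log2 scale. The 10 nearest were St6galnac2, Nudt4, Enpp2, Slc2a12, Cldn3, Tyro3, Slc4a2, Cgnl1, Ctnna1 and Traf5, with r from 0.99 to 0.98. Enpp2 (autotaxin, the enzyme that makes lysophosphatidic acid) measured 15.70, 16.39, 16.43 and 15.04 in B6 and 17.04, 16.92, 15.51 and 15.28 in BTBR. Slc4a2, the basolateral chloride bicarbonate exchanger AE2, measured 12.69, 13.03, 13.09 and 12.09 in B6 and 13.77, 13.53, 12.17 and 12.39 in BTBR. In both genes BTBR replicates 1 and 2 were highest and the strains overlapped. None of these 10 was called by limma, with differences from 0.16 to 0.44 and adjusted p from 0.588 to 0.84. With 1 mouse left out these differences moved widely, from 0.00886 to 0.60 in Enpp2, from 0.07 to 0.50 in St6galnac2 and from 0.07 to 0.40 in Nudt4. In Cldn3 (-0.047 to 0.37) and Slc4a2 (-0.027 to 0.50) the sign turned. Over the whole array 358 of 18399 genes (1.95%) reached r of 0.9, and 145 of the 2386 genes that span at least 1 (6.08%) did.

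A further list of 34 genes known from choroid plexus epithelium, 30 of them tested, followed the same profile in its mean. Its mean profile had r = 0.99 and rho = 1 with that of the markers (exact permutation p = 2.48e-05 and 4.96e-05, adjusted p = 0.000372 and 0.000744 over the 15 lists set against it), and 20 of the 30 (66.7%) reached r of 0.9. At r of 0.8 there were 25 of the 30, and the lowest were Slc29a4 (-0.50) and Trpm3 (0.56). Slc2a12 and Enpp2 belong to this list as well as to the 10 nearest genes. Limma called 0 of 30 (1 at an unadjusted p under 0.05), 23 had a higher mean in BTBR and 7 a lower one, and the median difference was 0.25. The largest differences were those of Calml4, a calmodulin-like gene, at 1.09 (adjusted p = 0.214, and 0.0142 without BTBR replicate 4), and Lbp, the lipopolysaccharide binding protein, at 0.77 (adjusted p = 0.454), or 0.39 without BTBR replicate 1. A further fit took as covariate the mean of the 8 markers other than Sostdc1 that were well above background on all 8 arrays. In that fit limma called 0 of 30 as higher in BTBR and 3 of 30 as lower, near the 9.54% called over all genes. Named after their values were seen, those 3 were Steap1 (-0.73, adjusted p = 0.0135), Trpm3 (-0.46, adjusted p = 0.0133) and F5 (-0.33, adjusted p = 0.042). The same fit called Bmp6 (0.40, adjusted p = 0.0444), Igf2 (1.08, adjusted p = 0.0127), C1ql2 (-1.59, adjusted p = 0.0175) and Wfs1 (0.82, adjusted p = 0.0204), which were not called without the covariate.

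Genes that work with the markers were read from further lists, beside the 7.90% of all genes that limma called. In the list of ion transport genes of fluid secretion it called 1 of 12, near that share: Slc12a2, the sodium potassium chloride cotransporter NKCC1, was 11.07 ± 0.10 in B6 and 12.14 ± 0.55 in BTBR (SD, n = 4 each), higher by 1.07 (SE 0.24, adjusted p = 0.0242). Its 4 BTBR mice measured 12.59, 12.63, 11.80 and 11.55 and lay above all B6 mice, the highest of which was 11.21. The call was lost when any one of B6 replicates 1 to 4 or BTBR replicates 1 and 2 was left out, with an adjusted p of at most 0.0739. The list's mean profile followed the markers (r = 0.97, exact permutation p = 7.44e-05, adjusted p = 0.000558), with r = 0.94 without BTBR replicates 1 and 2. Ttr carries thyroid hormone and, with its binding protein, retinol. Of 10 genes for the transport, conversion and receptors of these ligands 1 was called, also near that share: Slco1c1, the thyroxine transporter OATP1C1, higher by 0.73 (SE 0.13, adjusted p = 0.00979), a call kept with each array left out. The mean profile of these 10 genes had r = 0.11 with the markers (exact permutation p = 0.792, adjusted p = 0.925), and r = 0.78 without BTBR replicates 1 and 2.

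In the folate list, too short to set a share against the 7.90% of all genes, 2 of 5 were called: Slc46a1, the proton-coupled folate transporter, higher by 0.30 (SE 0.06, adjusted p = 0.0195), and Folr2, folate receptor beta, higher by 0.70 (SE 0.17, adjusted p = 0.0413). The Folr2 call was lost with the replicate block (adjusted p = 0.141), the slide as a block (0.0535), the deposited matrix (0.0518) or no filter on dim probes (0.0552) and when any single array other than B6 replicate 3 or BTBR replicate 3 was left out (adjusted p up to 0.114). That of Slc46a1 was lost when any one B6 mouse or BTBR replicate 1 was left out (up to 0.0667), and with the replicate block, the processed signal or median centring (0.0792, 0.0714 and 0.133). Among 8 genes of prolactin and growth hormone signaling 1 was called, again beside 7.90% of all genes. Socs2, a feedback inhibitor of cytokine receptor signaling, changed by -0.48 in BTBR (SE 0.11, adjusted p = 0.034). Leaving out B6 replicate 2, 3 or 4 or BTBR replicate 1 or 2 ended that call (adjusted p up to 0.104), as did the processed signal (0.0586). Prl itself, the ligand of Prlr and named after its values were seen, measured 7.92, 7.87, 10.06 and 12.48 in B6 and 11.55, 9.69, 12.28 and 13.83 in BTBR, and was not called (adjusted p = 0.348). Gh, growth hormone, a pituitary hormone like prolactin, had 7.79, 7.90, 10.85 and 13.02 in B6 and 8.82, 9.61, 12.05 and 12.74 in BTBR (adjusted p = 0.782). In B6, the spots of Prl and Gh each stood well above background on 2 arrays only, in BTBR on all 4. The part of pituitary RNA in these values was not tested. The Prl profile over the 8 mice had r = -0.35 with that of the markers, given as a description. The mean profiles of the folate and prolactin lists had r of 0.42 and -0.23 with the markers (exact permutation p = 0.293 and 0.57), and -0.12 and -0.57 without BTBR replicates 1 and 2.

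In 5 genes of Klotho signaling (Klb, Fgf23 and 3 FGF receptors) limma called 0 (2 at an unadjusted p under 0.05), with Klb, the coreceptor related to Klotho, at 0.30 (adjusted p = 0.0535) and Fgfr3 at 0.20 (adjusted p = 0.158). In 8 genes of BMP and Wnt signaling (4 BMP ligands, 3 LRP receptors and Sost, a secreted inhibitor related to Sostdc1) it called 0 (2 at an unadjusted p under 0.05), with Bmp6 at 0.54 (adjusted p = 0.205) and Bmp7 at 0.51 (adjusted p = 0.26). Of 11 tested relatives of the markers, other aquaporins, claudins, CLIC genes and Otx1, 0 were called (0 at an unadjusted p under 0.05), with Aqp11 at -0.46 (adjusted p = 0.296) and Cldn12 at 0.28 (adjusted p = 0.32). Their mean profile still followed that of the markers (r = 0.89, rho = 0.90, exact permutation p = 0.0028 and 0.00456, adjusted p = 0.0105 and 0.0171 over 15 lists), with r = 0.72 without BTBR replicates 1 and 2. Of the 11, 1 reached r of 0.9 by itself, Cldn3, which is one of the 10 nearest genes above, while Aqp11 (-0.90), Cldn10 (-0.56), Aqp4 (-0.36) and Cldn5 (-0.06) had r below 0. The Klotho and the BMP lists had r of -0.37 and 0.71 (exact permutation p = 0.362 and 0.0564, adjusted p = 0.542 and 0.121), and -0.44 and 0.47 without BTBR replicates 1 and 2.

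Other tissues of the dissection were read from marker lists on the same arrays. The marker profile was set against the mean profiles of 15 lists, each gene centred, with exact permutation p and Benjamini-Hochberg adjustment over the 15. The 12 hippocampal neuron markers ran opposite to it, with r = -0.92 (p = 0.00218, adjusted p = 0.0105), rho = -0.86 (p = 0.0107, adjusted p = 0.0321) and r = -0.75 without BTBR replicates 1 and 2. Their mean level ranged from 12.02 to 12.76 in B6 and from 10.996 to 12.54 in BTBR, 11 of 12 had a lower mean in BTBR, and limma called 0 (3 at an unadjusted p under 0.05), with C1ql2, a gene of dentate granule cells, at -1.87 (adjusted p = 0.0543) and Lct at -1.78 (adjusted p = 0.404, and -0.89 without BTBR replicate 2). C1ql2 was called with the slide as a block (adjusted p = 0.0278), with the replicate block (0.0144), with median centring (0.0453) and without B6 replicate 2 (0.0436) or BTBR replicate 4 (0.0197). BTBR replicates 1 and 2, in which the choroid markers were highest, had the lowest hippocampal profile, -0.86 and -1.17. The share of this in the marker levels was not tested.

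The 8 thalamus markers gave r = 0.70 with the choroid profile (exact permutation p = 0.0279, adjusted p = 0.0696), which turned to -0.64 without BTBR replicates 1 and 2. Their mean level ranged from 10.29 to 10.77 in B6 and from 10.33 to 13.47 in BTBR. BTBR replicate 1 stood far above the other mice, while BTBR replicate 2 was much nearer to them, although both had high choroid markers. All 8 had a higher mean in BTBR and limma called 0 (0 at an unadjusted p under 0.05). The largest differences were those of Slitrk6 at 1.22 (adjusted p = 0.361) and Prkcd at 1.20 (adjusted p = 0.411), and without BTBR replicate 1 they were 0.49 and 0.46.

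Ependyma, the ciliated lining of the ventricles next to the choroid plexus, gave r = 0.58 (exact permutation p = 0.135, adjusted p = 0.254) over 16 genes, and -0.14 without BTBR replicates 1 and 2. Its mean level ranged from 9.88 to 10.29 in B6 and from 9.89 to 10.87 in BTBR. Of the 16 genes, 14 had a higher mean in BTBR, with a median difference of 0.31. Limma called 0 of 16 (3 at an unadjusted p under 0.05), with Tekt1 at 0.71 (adjusted p = 0.141) and Rsph1 at 0.59 (adjusted p = 0.0751). Tekt1 was called without BTBR replicate 4 (adjusted p = 0.00272) and Rsph1 without BTBR replicate 3 (0.0364). The 15 tested genes of the meninges, the membranes that border the fissure, gave r = 0.04 (exact permutation p = 0.929) and 0.30 without BTBR replicates 1 and 2, a mean level from 10.01 to 11.01 in B6 and from 10.10 to 11.28 in BTBR, and 0 calls (2 at an unadjusted p under 0.05). In that list 11 of 15 had a higher mean in BTBR. Igf2 stood at 1.29 (adjusted p = 0.0653) and Slc6a13 at 1.02 (adjusted p = 0.215), and Igf2 was called without B6 replicate 3 (0.0384) or BTBR replicate 3 (0.0326). Endothelium gave r = 0.88 (exact permutation p = 0.00513, adjusted p = 0.0154) and 0.95 without BTBR replicates 1 and 2, over a mean level that ranged from 10.78 to 11.03 in B6 and from 10.81 to 11.05 in BTBR. Limma called 0 of its 10 genes (0 at an unadjusted p under 0.05), with 6 of 10 higher in BTBR, Plvap at -0.23 (adjusted p = 0.348) and Pecam1 at 0.17 (adjusted p = 0.369). By itself 1 of the 10 reached r of 0.9, Slco1a4 at 0.98, while Abcb1a (0.41), Flt1 (0.31), Plvap (0.30) and Cldn5 (-0.06) lay lowest. Border macrophages (4 genes, r = 0.10, and 0.32 without BTBR replicates 1 and 2) and red blood cells (2 genes, r = -0.07, and 0.20 without them) showed no relation past the threshold and no call (0 at an unadjusted p under 0.05 in either list). The macrophage genes F13a1 and Pf4 had differences of 0.39 (adjusted p = 0.38) and -0.33 (adjusted p = 0.39). With 1 mouse left out these ran from 0.25 to 0.57 and from -0.45 to -0.16. The blood genes Hba-a1 and Alas2 had differences of 0.43 (adjusted p = 0.668) and 0.21 (adjusted p = 0.897). With 1 mouse left out both turned sign, from -0.000961 to 0.65 in Hba-a1 and from -0.41 to 0.48 in Alas2.

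**Figure D4:**
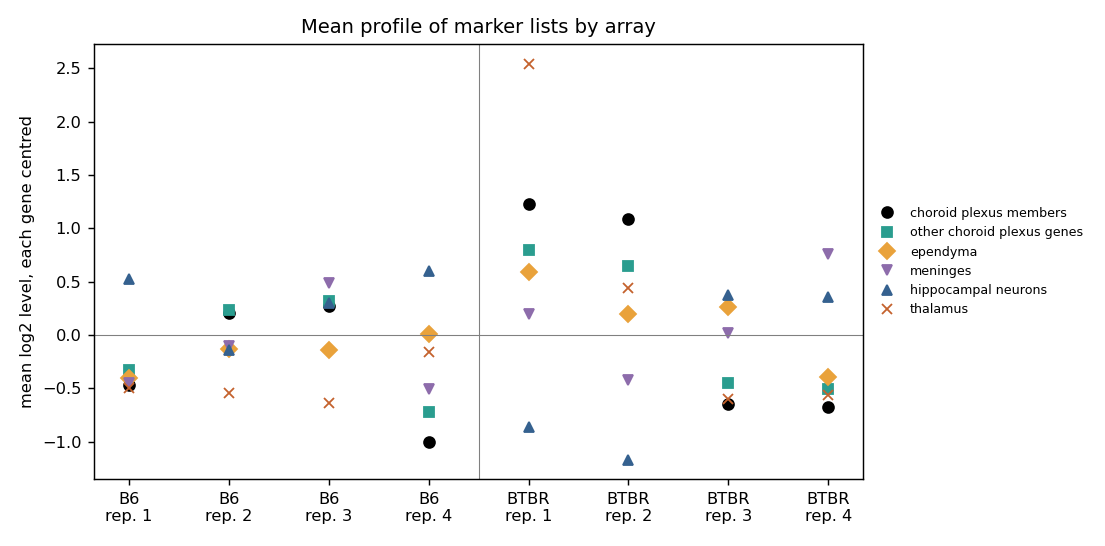
Mean log2 level of each marker list on the 8 arrays, each gene centred on its mean over the arrays. The choroid plexus markers and the further choroid plexus list are highest in BTBR replicates 1 and 2, where the hippocampal neuron list is lowest, and the thalamus list reaches 2.54 in BTBR replicate 1.

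Because the markers went together and Otx2 is a transcription factor of this epithelium, the promoters were searched for the core letters TAATCC that Otx proteins are known to bind, on both strands (GGATTA on the other). RefSeq promoter windows of 300 bases in GRCm38.p6, 250 before and 50 after a start, were held for 6 of the 10 markers: Kl, Aqp1, Slc4a5, Otx2, Prlr and Cldn2, in 11 windows. Of these 11, 1, that of an Otx2 start, held the letters, and 7.06% of 32851 windows over all genes did. It is shown as the 250 bases before that start (chr14:48665110-48665359, - strand), with the match, 211 bases before the start, in capitals.
Otx2: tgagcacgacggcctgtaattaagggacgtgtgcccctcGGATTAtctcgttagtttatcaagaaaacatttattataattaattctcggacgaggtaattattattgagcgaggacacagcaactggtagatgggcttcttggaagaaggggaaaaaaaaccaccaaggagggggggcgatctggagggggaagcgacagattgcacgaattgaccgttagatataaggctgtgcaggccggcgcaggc
The match describes these letters in this window and says nothing of binding.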

How the data were processed

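Probe coordinates are mm9. The intensity values were deposited by the authors as read from the Cy3 arrays by Agilent Feature Extraction (the file headers give 10.7.3.1, and 9.1 stands in the submitters' processing notes). The log2 matrix deposited by the authors was background subtracted and quantile normalised, with replicate spots by their median, and served as an alternative. Here, local background was subtracted from mean intensity (minimum 0.5), 50 was added as offset, and quantile normalisation followed on the log2 scale. Probes with outlier flags on most spots (154) and probes not well above background on 75% or more of the arrays in either strain were dropped, leaving 27982. Each gene was read by its brightest tested probe. Limma 3.58.1 (R 4.3.3) fitted strain alone, and the rank product used 100 permutations. Both, and the exact permutation p, were checked on simulated data. By rule, all markers were named, the 10 nearest genes, and from each list at most 3 called genes or, without a call, the 2 largest differences. Named outside this rule were Prl, Gh, Wfs1, Steap1, Trpm3, F5 and genes given for their r with the marker profile. Members, lists and tests were chosen with earlier results of these data known. Alternatives covered signal, normalisation, filters, probes of a gene, blocks and each array left out. Figures were drawn with matplotlib 3.10.9.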

Additional observations from a re-analysis of the deposited data

How the results depend on the processing

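Limma called 0 of the tested markers under every alternative tried (10 markers, and 9 with the filter of all 8 arrays well above background, which drops Aqp1): the processed signal, normexp, the deposited matrix, median centring, other filters on dim probes, outlier flags kept, the median over a gene's probes, trend and robust options, slide or replicate block, and each array left out. The rank product called Sostdc1 under each alternative run and called 1 to 2 markers with an array left out, the second being Ttr without BTBR replicate 3 and Clic6 without BTBR replicate 4. The median marker difference was 0.32 to 0.42 over the other alternatives and 0.03 to 0.67 with an array left out. Pairs correlated past the threshold numbered 42 of 45 with the processed signal, 36 by Spearman's rho, 32 on deviations from the strain means and 40 to 45 with an array left out. The Sostdc1 difference with the other markers as covariate, a comparison and alternatives chosen after seeing the data, ran from 1.11 to 1.38, adjusted p 0.000229 to 0.00331. Aqp1 turned to -0.056 with the processed signal. With an array left out, the difference changed sign in Aqp1 (-0.13 to 0.37), Folr1 (-0.15 to 0.65), Slc4a5 (-0.10 to 0.62), Prlr (-0.063 to 0.33), Ttr (-0.061 to 0.87), Cldn3 (-0.047 to 0.37), Slc4a2 (-0.027 to 0.50), Alas2 (-0.41 to 0.48) and Hba-a1 (-0.000961 to 0.65), none of them called. The replicate numbers are not given as pairs, and deviations of same-numbered mice correlated at -0.14, 0.51, -0.10 and 0.39. With the replicate block, limma called 0 of 10 markers and Sostdc1 had an adjusted p of 0.135, while Folr2 (0.141) and Slc46a1 (0.0792) lost their calls. Folr2 was also lost with the deposited matrix (0.0518), no filter on dim probes (0.0552) and the slide as a block (0.0535), Slc46a1 with the processed signal (0.0714) and median centring (0.133), and Socs2 with the processed signal (0.0586). With arrays left out, adjusted p reached 0.0739 for Slc12a2, 0.0667 for Slc46a1, 0.114 for Folr2 and 0.104 for Socs2, and at most 0.0361 for Slco1c1. Calls were gained by C1ql2 (0.0278 with the slide as a block, 0.0144 with the replicate block, 0.0453 with median centring), Klb (0.0372 with median centring) and Igf2 (0.05 with the median over its probes), and with an array left out by C1ql2, Calml4, Tekt1, Rsph1 and Igf2. The cause was not tested. The number of arrays and, for Aqp1, the nearness of its signal to background limit these values.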
